A study of Mus musculus with 8 samples.

Results

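Acetylcholine signalling in the mouse brain was followed through 10 genes, which were chosen by name and not by their values. They are Chat, Slc18a3 and Slc5a7, which mark the neurons that make acetylcholine, the cholinesterase genes Ache and Bche, the muscarinic receptor genes Chrm1, Chrm2, Chrm3 and Chrm4, and the nicotinic receptor subunit gene Chrna7. All 10 were named in the array annotation, out of 19505 named genes, and where a gene had more than 1 row on the array the row with the highest mean over the 8 arrays was used. This applied to Ache alone, which had 2 rows.

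Choline acetyltransferase, the product of Chat, joins choline to an acetyl group in the nerve terminal. The vesicular transporter VAChT (Slc18a3) loads the product into vesicles, and after release acetylcholinesterase (Ache) splits it so that the choline transporter CHT1 (Slc5a7) can carry the choline back. In the forebrain these steps occur in a small number of neurons, among them the projection neurons of the basal forebrain and the interneurons of the striatum. By contrast, the receptors are made by the many neurons that listen to them.

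The mice were males of the outbred ICR strain, bought at 8 weeks of age and given 1 week to settle. They drank water, or water with rosemary extract (RE), for 7 days, and all groups but the first also went through the tail suspension test (TST), a stressor in which mice are suspended by the tail and time spent immobile is recorded. There were 2 arrays for each of 4 groups: mice on water that were spared the test (water without TST), mice on water that underwent it (water with TST), and tested mice on RE at a low dose of 10 mg/kg or at a high dose. For the high dose the titles give 100 mg/kg, but the source label gives 50 mg/kg. The labels' agent field names the water groups as positive control (no TST) and negative control (TST), so the groups here follow the titles. The tissue is labelled limbic system in 1 field and hippocampus in another. The labels do not say whether an RNA sample came from 1 mouse or from a pool of the 7 mice assigned to a group, so p-values reflect no more than how far these samples differed, which may be technical.

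Values are given on the deposited log2 scale, where a step of 1 is nominally a doubling of signal. Medians of the arrays ran from 7.45 to 7.51. Checked against cell type markers, 2 arrays stood apart in genes of the cerebellum, which is neither of the labelled tissues. Cerebellar granule cell genes, 8 measured of 9 listed and each centred over the 8 arrays, averaged 4.8 in water with TST replicate 2, 2.82 in water without TST replicate 1 and -1.60 to -0.55 in the other 6. Forebrain excitatory markers (7 of 8 measured) were at -1.97 on water with TST replicate 2 and between -0.34 and 0.64 elsewhere. Within that list Neurod2 went the other way, at 9.38 on that array against 7.12 to 8.95 elsewhere. Slc17a7 was only a little lower there, at 15.30 against 15.55 to 16.30, as was Emx1, at 6.70 against 6.88 to 7.52. Striatal projection neuron markers (7 of 9 measured) were highest on water without TST replicate 2, at 1.89, where the next array was at 0.18. Correlations of water with TST replicate 2 with the other arrays, across rows, ran from 0.967 to 0.978, against 0.983 to 0.993 among the other 7. In RNA from whole tissue, fewer cells of a type and less RNA per cell cannot be told apart.

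The start regions of the 3 genes that define a cholinergic neuron are shown first because Slc18a3 lies wholly inside Chat in the RefSeq annotation, an arrangement known as the cholinergic gene locus, while Slc5a7 lies on another chromosome. Each run is the 250 bases before the RefSeq start site on the gene's own strand, 5′ to 3′, in build GRCm38.p6. Capitals mark GGGCGG, the GC box, and TGACG, the core of the cyclic AMP response element, on either strand. Chat is at chr14:32465910-32466159, Slc18a3 at chr14:32464851-32465100 and Slc5a7 at chr17:54299035-54299284, all on the minus strand.
Chat: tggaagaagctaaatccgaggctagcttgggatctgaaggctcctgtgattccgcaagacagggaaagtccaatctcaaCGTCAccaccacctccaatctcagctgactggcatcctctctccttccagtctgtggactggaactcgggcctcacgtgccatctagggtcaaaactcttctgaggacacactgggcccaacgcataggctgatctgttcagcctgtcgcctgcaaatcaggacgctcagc
Slc18a3: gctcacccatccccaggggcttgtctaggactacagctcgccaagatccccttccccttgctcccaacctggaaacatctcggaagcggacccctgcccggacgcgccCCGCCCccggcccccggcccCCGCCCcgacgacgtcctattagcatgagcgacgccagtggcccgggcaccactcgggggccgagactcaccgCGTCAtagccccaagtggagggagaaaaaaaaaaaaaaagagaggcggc
Slc5a7: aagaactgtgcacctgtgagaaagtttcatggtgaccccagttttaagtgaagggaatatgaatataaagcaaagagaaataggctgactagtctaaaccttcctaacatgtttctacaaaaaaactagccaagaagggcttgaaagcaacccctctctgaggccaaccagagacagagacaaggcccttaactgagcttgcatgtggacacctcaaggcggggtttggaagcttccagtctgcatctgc
The Slc18a3 run held 2 GC boxes and 1 TGACG, the Chat run 1 TGACG and no GC box, and the Slc5a7 run neither. Across 32851 RefSeq start regions of the same length, 32.7% held the GC box and 17.8% held TGACG. The 3 runs differed in base composition as well, with 66% G or C for Slc18a3, 54.8% for Chat and 45.6% for Slc5a7. Of the 10 genes, 9 had a start region in the table, all but Chrm1. A match describes these letters and is not a measured binding site.

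Chat and Slc18a3 were dim throughout. Their 8-array means stood at percentiles 1.26 and 2.96 among the means of all rows, which is given to show how little signal lies behind them and not to rank transcripts. Chat, the synthetic enzyme, was at 3.5 and 4.00 in water without TST, 3.40 and 4.49 in water with TST, 3.77 and 4.14 with low-dose RE, and 3.31 and 3.93 with high-dose RE. Every group overlapped every other, and the water with TST pair alone, 1.09 apart, covered most of the 1.18 between the lowest and the highest array. Replicate 2 was the higher array in all 4 groups. The lower quartile of all rows differed by 0.33 between arrays, from 5.48 to 5.81.

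Slc18a3, the vesicular transporter, was at 4.05 and 4.33 in water without TST and at 3.96 and 4.64 in water with TST. It was at 4.12 and 3.97 with low-dose RE and at 3.83 and 3.89 with high-dose RE. Both high-dose arrays lay below all other arrays, though the distance to the next, 3.96, was small beside the 0.68 that separated the water with TST pair.

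Slc5a7, the choline transporter, gave the clearest signal of the 3, with its mean at percentile 50.8. It was at 7.08 and 8.76 in water without TST, 6.97 and 8.09 in water with TST, 7.69 and 7.41 with low-dose RE, and 6.91 and 7.43 with high-dose RE. Replicate 2 of either water group stood above all other arrays, by 1.68 and 1.12 over the other array of its group. The same 2 arrays were the highest for Slc18a3, and for Chat, water with TST replicate 2 was the highest as well.

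The list of further markers of basal forebrain and striatal cholinergic neurons (4 of 5 genes measured) had the same pair of arrays on top, at 0.22 on water with TST replicate 2 and 0.12 on water without TST replicate 2, with the others between -0.14 and 0.06. Within it, Lhx8, a transcription factor gene of these neurons, was highest on water without TST replicate 2, at 9.01 against 7.73 to 8.81 elsewhere. On water with TST replicate 2 Lhx8 was at 8.25, under its 8-array mean of 8.285, and the list mean there rested mostly on Zic4. Zic4 was at 6.32 on that array against 5.38 to 5.68 elsewhere. Its next highest array was water without TST replicate 1, the other array high in cerebellar genes. Ngfr, the gene of the p75 neurotrophin receptor, kept within 6.97 and 7.30, and Gbx1 within 4.08 and 4.31, near the bottom of the array. In markers of other cells the pair differed. Water without TST replicate 2 was highest in the striatal projection neuron list. Water with TST replicate 2 was lowest in the striatal list, at -1.16, and highest in the brainstem and motor neuron list (8 of 9 genes measured), at 0.64 where the rest lay between -0.21 and -0.01. In that list Slc6a5, the glycine transporter gene of hindbrain inhibitory neurons, was at 10.11 on it against 5.86 to 6.90 elsewhere. Tph2, the tryptophan hydroxylase gene of serotonin neurons, was at 8.46 against 6.70 to 7.55. The list mean there rested mostly on Slc6a5 and Tph2. Mnx1 was lowest on that array, at 3.48 against an 8-array mean of 3.81. Phox2a, at 5.71, was near its mean of 5.68. Prph, Hoxa5 and Hoxc4 were above their means there but not at their highest. Hoxb5 was highest there, at 4.25, but only just, with 4.24 on water without TST replicate 1. Mnx1, Hoxa5 and Hoxb5 were near the bottom of the array. The part of these cell contents in the cholinergic values was not tested.

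**Figure D1:**
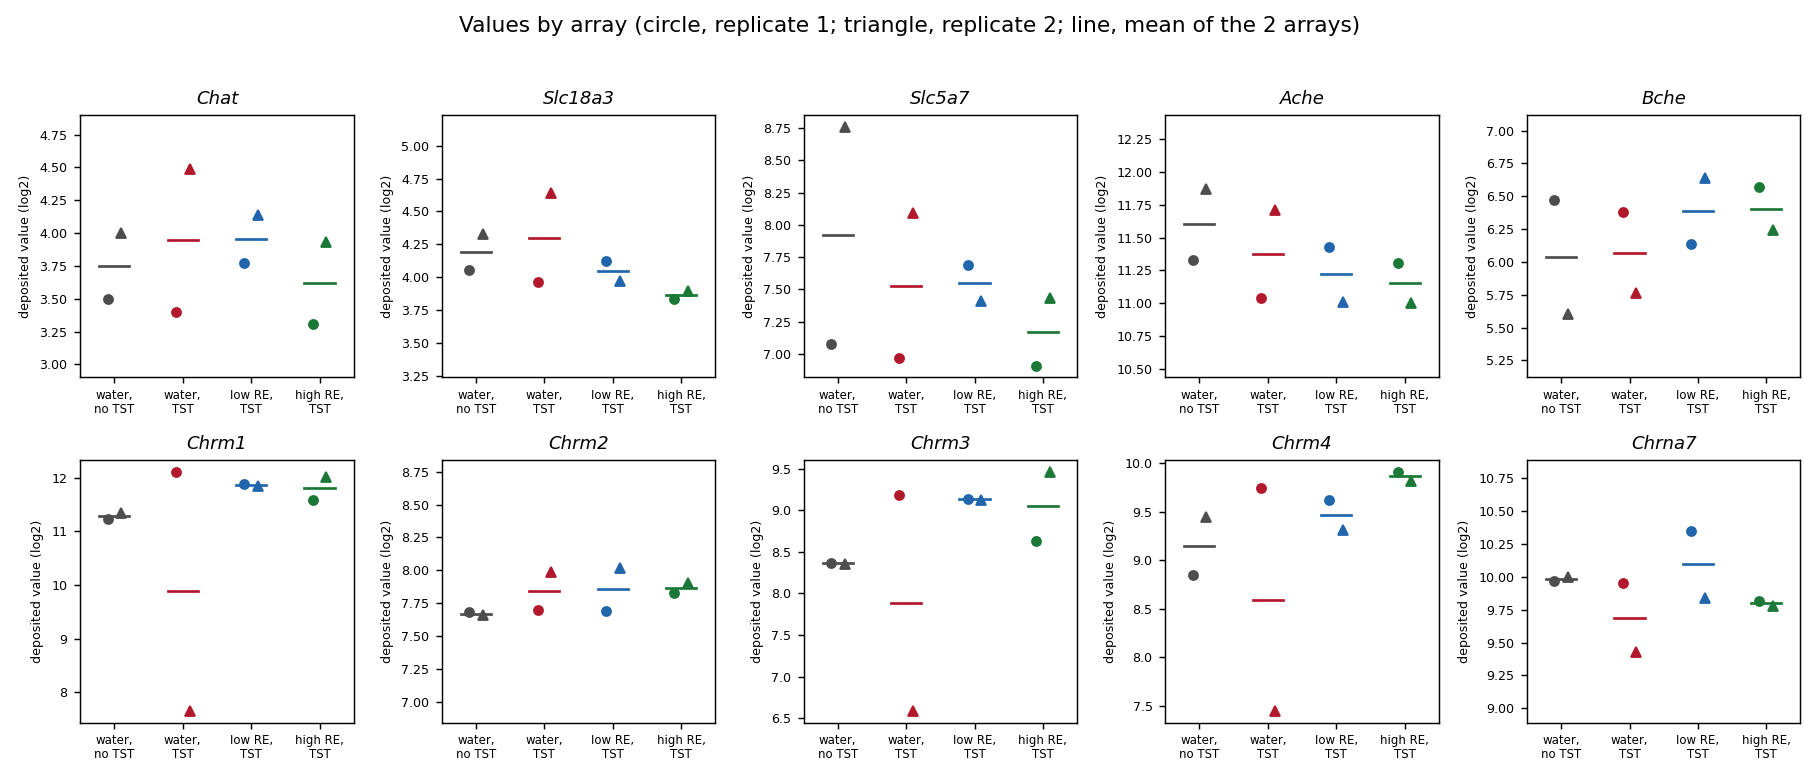
Deposited log2 values of the 10 genes on each array, with 1 panel per gene, the 4 groups along the horizontal axis, a circle for replicate 1, a triangle for replicate 2 and a line for the mean of the 2 arrays. Each vertical axis spans at least 2 log2 units and has its own range; Chrm1, Chrm3 and Chrm4 show 1 low array, water with TST replicate 2, at 7.66, 6.59 and 7.45.

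Acetylcholinesterase, which ends the signal at the synapse, is also made by neurons that receive acetylcholine. The brighter of the 2 Ache rows was at 11.33 and 11.87 in water without TST, 11.04 and 11.71 in water with TST, 11.43 and 11.01 with low-dose RE, and 11.31 and 11.0 with high-dose RE. Its highest arrays were again replicate 2 of either water group. The dimmer row was at 8.29 and 9.0, 7.47 and 8.23, 8.65 and 7.78, and 8.11 and 8.21 in the same order of groups and arrays. The rows shared their highest array, but water with TST replicate 2 was not second on the dimmer row. They gave opposite signs for either dose of RE against water with TST. By their identifiers, the brighter row, used here, is unmapped and the dimmer row is on chromosome 5.

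Bche encodes butyrylcholinesterase, a slower and less selective enzyme that glia and endothelial cells make. It was at 6.47 and 5.60 in water without TST, 6.38 and 5.76 in water with TST, 6.14 and 6.64 with low-dose RE, and 6.57 and 6.24 with high-dose RE. Its lowest arrays were the pair that was highest for the brighter Ache row and Slc5a7, so the cholinesterase genes stood on opposite sides of their means there. Averaged, Ache and Bche stayed within -0.16 and 0.16 of their 8-array mean on every array.

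Chrm1 encodes the M1 receptor, the main muscarinic receptor of cortical and hippocampal pyramidal cells, which acts through Gq. It was at 11.23 and 11.34 in water without TST, 12.11 and 7.66 in water with TST, 11.89 and 11.84 with low-dose RE, and 11.59 and 12.02 with high-dose RE. The water with TST arrays were its highest and its lowest, 4.45 apart, and the other 7 arrays lay within 0.88 of each other.

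Chrm3, another Gq-coupled receptor, was at 8.37 and 8.35, 9.18 and 6.59, 9.14 and 9.12, and 8.63 and 9.46 in the same order of groups. Chrm4, the Gi-coupled receptor of striatal and other forebrain neurons, was at 8.85 and 9.45, 9.74 and 7.45, 9.62 and 9.31, and 9.91 and 9.82. Both genes were lowest on water with TST replicate 2, by 2.59 and 2.29 under replicate 1 of that group. On water without TST replicate 2, where the striatal markers were highest, Chrm4 was at 9.45, below 4 of the 5 arrays of the TST groups other than water with TST replicate 2.

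Chrm2, whose M2 product is the autoreceptor of cholinergic terminals and the receptor of hindbrain and cardiac targets, varied least. It was at 7.68 and 7.66, 7.70 and 7.99, 7.69 and 8.02, and 7.83 and 7.90 in the same order, a range of 0.36. Chrna7, the subunit of the calcium-permeable alpha7 nicotinic receptor of hippocampal interneurons and pyramidal cells, was at 9.97 and 10.00, 9.95 and 9.43, 10.35 and 9.84, and 9.82 and 9.78. It was lowest on water with TST replicate 2 too, by 0.35 under the next array.

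**Figure D2:**
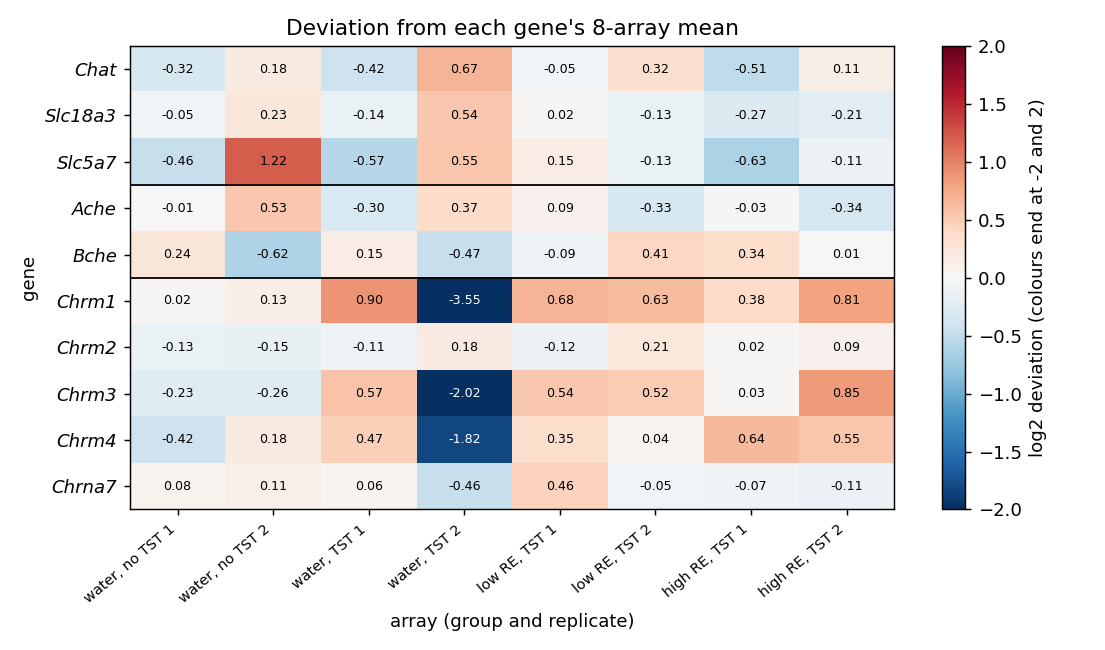
Deviation of each of the 10 genes (rows) from its own 8-array mean on each array (columns), in log2 units, with the values printed and colours that end at -2 and 2; lines part the cholinergic neuron genes, the cholinesterases and the receptors. On water with TST replicate 2, Chat is at 0.67 and Slc5a7 at 0.55 while Chrm1 is at -3.55, Chrm3 at -2.02 and Chrm4 at -1.82.

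Set against each other, the genes of cholinergic neurons and the receptor genes Chrm1, Chrm3 and Chrm4 lay furthest apart on 1 array. The mean deviation of Chat, Slc18a3 and Slc5a7 was 0.59 on water with TST replicate 2, 0.54 on water without TST replicate 2, and between -0.47 and 0.04 on the other 6. Chrm1, Chrm3 and Chrm4 were grouped after their values were seen. Their mean deviation was -2.46 on water with TST replicate 2, 0.02 on water without TST replicate 2, and between -0.21 and 0.74 elsewhere. Some other arrays had the reverse order, with the cholinergic neuron genes at -0.38 and these receptor genes at 0.65 on water with TST replicate 1. With high-dose RE they were at -0.47 and 0.35 on replicate 1 and at -0.07 and 0.74 on replicate 2. The forebrain excitatory list had its lowest value, -1.97, on water with TST replicate 2. The 5 receptor genes together ranged from -1.53 there to 0.44. Among them Chrm2 was at 0.18 on that array, on the side of the cholinergic neuron genes, and Chrna7 at -0.46. These are descriptions of 8 arrays, and no test was made of the means.

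**Figure D3:**
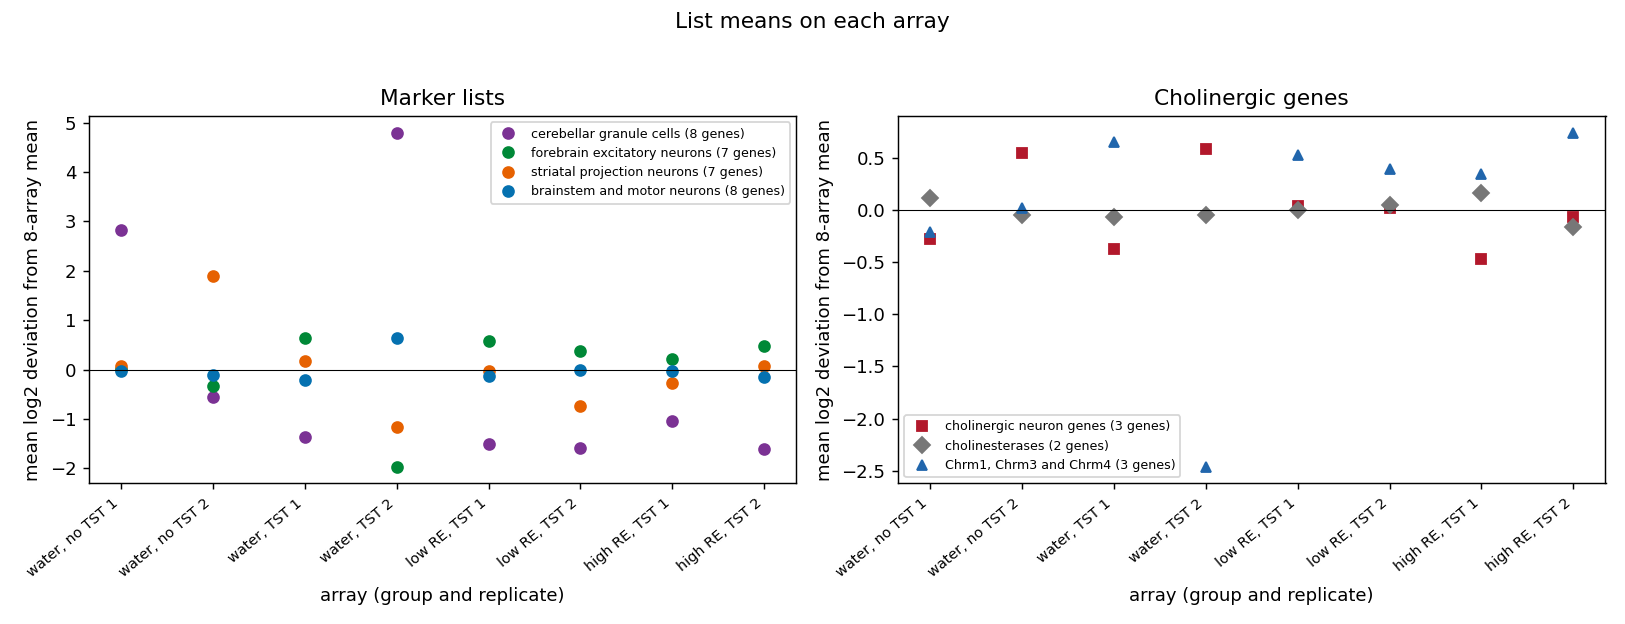
Mean log2 deviation from the 8-array mean on each array, with 1 point per list and array. The left panel has 4 marker lists. The right panel has the cholinergic neuron genes, the cholinesterases, and Chrm1, Chrm3 and Chrm4, which were grouped after their values were seen. Chrm2 and Chrna7 are not shown. Water with TST replicate 2 is highest in cerebellar markers (4.8), lowest in forebrain excitatory markers (-1.97) and lowest in Chrm1, Chrm3 and Chrm4 (-2.46).

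The TST comparison asked what the suspension test did in mice given water. None of the 10 genes passed the study's threshold, a fold change above 1.2 with an unadjusted p under 0.05, which 2.55% of all 22206 rows passed; 4 genes were higher with TST and 6 lower. The median difference was -0.26 over the 10 genes and 0.005 over all rows. Chrm1 had the largest difference, at -1.40 (standard error, SE, 1.12, n = 2 arrays per group, limma), with a 95% interval from -3.96 to 1.16. Chrm4 was at -0.56 (SE 0.622), Chrm3 at -0.48 (SE 0.699) and Slc5a7 at -0.39 (SE 0.557). Chat, at 0.20 (SE 0.402), and Slc18a3, at 0.11 (SE 0.279), lay within their error. In 2 genes the arrays of the groups did not overlap, Chrm2 higher by 0.18 (SE 0.235) and Chrna7 lower by -0.30 (SE 0.275), where 27.5% of all rows did not overlap. By limma, 0 of the 10 genes and 0% of all rows had an adjusted p under 0.05, the 10 genes each at an adjusted p of 0.997. None of the 10 had an unadjusted p under 0.05 by limma, and none passed the study's threshold by the methods' analysis of variance.

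Single arrays set the sign of the Chrm1, Chrm3 and Chrm4 values, while Chrm2 stayed above 0, at 0.03 to 0.32, whichever array was left out. A fit without 1 array leaves its group with a single sample, which is then assumed to vary like the other groups. Without water with TST replicate 2, the array highest in cerebellar markers, Chrm1 was at 0.83, Chrm3 at 0.82 and Chrm4 at 0.59. Water without TST replicate 1, the next highest array in cerebellar granule cell genes at 2.82, stayed in that fit. Without water with TST replicate 1, Chrm1, Chrm3 and Chrm4 were at -3.63, -1.77 and -1.70. Slc5a7 was at -1.23 without water without TST replicate 1, and at 0.45 without replicate 2 of that group.

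Low-dose RE was compared with water, both with TST, for an effect of the extract under the stressor. Chrm1 was at 1.98 (SE 1.12, n = 2 arrays per group), Chrm3 at 1.25 (SE 0.699), Chrm4 at 0.87 (SE 0.622) and Chrna7 at 0.41 (SE 0.275). None of the 10 genes passed the study's threshold, which 3.54% of all rows passed, and none had an adjusted p under 0.05 by limma (lowest 0.946; 0% of rows, and 0 of the 10 genes at an unadjusted p under 0.05). The 95% interval of Chrm1 ran from -0.581 to 4.54. Chat was at 0.01 (SE 0.402), Slc5a7 at 0.02 (SE 0.557) and Slc18a3 at -0.26 (SE 0.279). Of the 10 genes 8 were higher, with a median of 0.17 against 0.015 over all rows, and in none did the arrays keep apart, which 25% of all rows did. Without water with TST replicate 2, Chrm1 was at -0.25, Chrm3 at -0.05 and Chrm4 at -0.28; without replicate 1 of that group they were at 4.21, 2.54 and 2.02 and past the threshold, as were 17% of all rows.

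High-dose RE was set against the same water arrays, so this comparison shares its controls with the last. Chrm1 was at 1.92 (SE 1.12), Chrm4 at 1.27 (SE 0.622), Chrm3 at 1.16 (SE 0.699) and Chrna7 at 0.11 (SE 0.275). The genes of cholinergic neurons were at -0.44 (SE 0.279) for Slc18a3, -0.36 (SE 0.557) for Slc5a7 and -0.33 (SE 0.402) for Chat. None of the 10 passed the study's threshold, against 3.17% of all rows, and none passed the adjusted test by limma (lowest adjusted p = 0.973; 0% of rows, and 0 of the 10 at an unadjusted p under 0.05). The smallest unadjusted p was that of Chrm4, 0.0744, with a 95% interval from -0.156 to 2.70. Arrays did not overlap for Chrm4, higher, and Slc18a3, lower, where 30.5% of all rows did not overlap. The median was 0.065 over the 10 genes and 0.01 over all rows. Without water with TST replicate 2, Chrm4 was at 0.13, Chrm1 at -0.31, Chrm3 at -0.14, Slc5a7 at 0.20 and Chat at 0.22. Without replicate 1 of that group, 17% of all rows and 5 of the 10 genes were past the threshold, Chrm1 at 4.15, Chrm3 at 2.46, Chrm4 at 2.42, Chat at -0.87 and Slc18a3 at -0.78.

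The doses were compared directly as well, a comparison that uses no water array. Differences were smaller: the median size was 0.135 over the 10 genes and 0.165 over all rows. Chrm4 was at 0.40 (SE 0.622, n = 2 arrays per group), Slc5a7 at -0.38 (SE 0.557), Chat at -0.34 (SE 0.402) and Chrna7 at -0.30 (SE 0.275). Chrm1, at -0.06, had a 95% interval from -2.62 to 2.5, wide because the shared estimate of the spread includes the water with TST pair. None of the 10 passed the study's threshold, which 1.91% of rows passed, and none the adjusted test by limma (each at an adjusted p of 1; 0% of rows, and 0 of the 10 at an unadjusted p under 0.05). Arrays did not overlap for Chrm4, higher at the high dose, and for Slc18a3 and Chrna7, lower, against 26.6% of all rows.

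By group mean, Chrm4 ran from 8.60 in water with TST through 9.15 in water without TST and 9.47 with low-dose RE to 9.87 with high-dose RE. Slc5a7 ran from 7.92 in water without TST through 7.55 with low-dose RE and 7.53 in water with TST to 7.17 with high-dose RE, so high-dose RE was at the top of one order and the bottom of the other. Neighbours in either order lay closer together than the 2 arrays of at least 1 of their groups, except low- and high-dose Chrm4, whose difference of 0.40 was within its SE of 0.622. Over all 4 groups, the moderated F-test of limma gave unadjusted p values between 0.289 (Chrm4) and 0.817 (Chrm2) for the 10 genes, 0 of them under 0.05, where 1.82% of all rows were under 0.05.

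**Figure D4:**
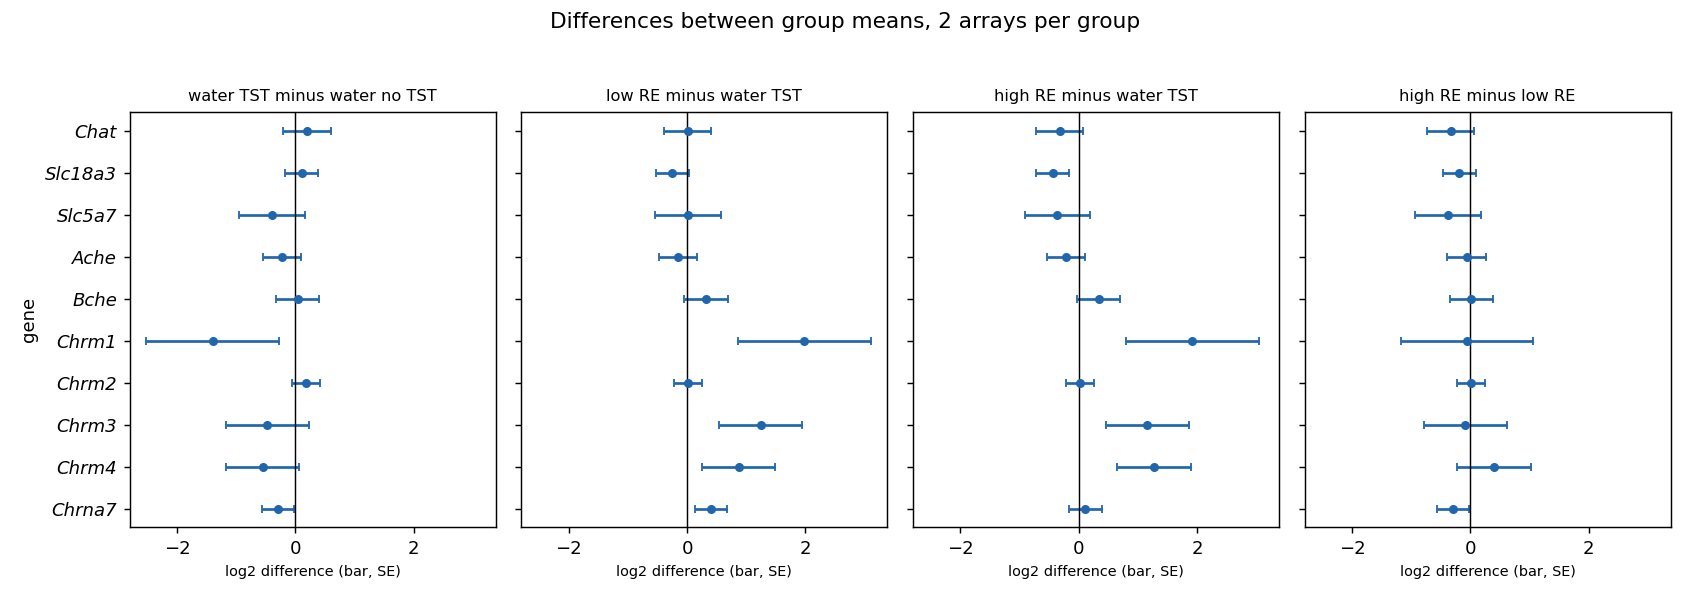
Log2 difference between group means for the 10 genes in each of the 4 comparisons, with bars of 1 SE from the limma fit and 2 arrays per group. Chrm1, at -1.40 with TST and at 1.98 and 1.92 with the RE doses, has the widest bars (SE 1.12), and no gene passes the study's threshold in any panel.

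Replicates of a group differed more in these genes than in the median row in 3 of the 4 groups. The median gap between the pair of arrays was 0.885 in water with TST against 0.37 over all rows, and 5 of the 10 genes differed by more than 1, where 12.7% of rows did. In water without TST it was 0.39 against 0.25, with 1 gene, Slc5a7, and 3.27% of rows over 1. With low-dose RE it was 0.32 against 0.33 and with high-dose RE 0.32 against 0.22, with 0 genes over 1 in either, against 6.48% and 1.63% of rows.

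Genes whose values were most like those of Chrm1, Chrm4 and Chat over the 8 arrays were found by the mean absolute difference of centred values, among named genes whose range was at least 50% of that gene's. For Chrm1, Tbr1 was closest, at 0.0788 log2 units among 610 candidates; it encodes a transcription factor of deep-layer cortical neurons and was at 13.65 and 9.25 in the water with TST pair. Next to it were Ptk2b (0.118), a calcium-sensitive kinase gene, Dlgap2 (0.139), a postsynaptic scaffold gene, Vxn (0.146) and Stum (0.147). For Chrm4, among 3463 candidates, the closest were Slit1 (0.124), an axon guidance gene, Ncan (0.126), the gene of the matrix proteoglycan neurocan, the neurturin receptor gene Gfra2 (0.136), the cholesterol hydroxylase gene Cyp46a1 (0.144) and Shc3 (0.146). For Chat, among 13365 candidates, they were Gltpd2 (0.1), Ncmap (0.113), Skint1 (0.124), Slc16a9 (0.126) and Akna (0.127). Neither Slc18a3 nor Slc5a7 was among these 5, and the means of these 5 stood between percentiles 7.52 (Gltpd2) and 48.7 (Slc16a9) of all rows, against 1.26 for Chat.

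Beyond the 10 genes, 39 of 41 listed genes of the pathway were measured. With TST, 1 of the 39 was past the study's threshold and higher, and 0 lower, beside 2.55% of all rows. With low-dose RE against water with TST it was 1 higher and 0 lower, beside 3.54%, with high-dose RE 1 higher and 2 lower, beside 3.17%, and for high against low dose 0 higher and 2 lower, beside 1.91%. The 1 gene with TST is close to the share over all rows, and the counts are no result about the pathway as a whole. The median difference over the 39 was -0.015, 0.12, 0.115 and -0.06 in these 4 comparisons. None passed the adjusted test by limma.

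The gene past the threshold with TST was Chrnb4, which encodes the beta4 nicotinic subunit known from the medial habenula. It was at 5.83 and 5.67 in water without TST, 6.78 and 6.72 in water with TST, 6.72 and 6.56 with low-dose RE, and 6.23 and 5.98 with high-dose RE. Its replicates lay within 0.25 of each other in every group, and the water groups did not overlap. Its 8-array mean stood at percentile 35.9 among the means of all rows. The water without TST values were close to the lower quartiles of those arrays, 5.59 and 5.63. The difference was 1.00 with TST (SE 0.225, n = 2 arrays per group; limma, unadjusted p = 0.00196, adjusted p = 0.997), and it was past the threshold in 8 of the 8 fits that left out 1 array, at 0.92 to 1.08. High-dose RE was at -0.65 (SE 0.225) against water with TST, past the threshold in 6 of 8 such fits (lost on leaving out replicate 1 of the water group or replicate 2 of the high-dose group), and at -0.54 (SE 0.225) against the low dose, past it in 2 of 8. Low-dose RE was at -0.11 (SE 0.225). The medial habenula list, 7 of 7 genes measured with Chrnb4 among them, was at -0.27 and -0.41 in water without TST, 0.22 and -0.59 in water with TST, 0.49 and 0.18 with low-dose RE, and 0.21 and 0.18 with high-dose RE. Chrna3, the usual partner of beta4 in that nucleus, was at 7.38 and 7.33, 7.73 and 7.45, 8.09 and 7.74, and 7.50 and 7.98 in the same order and was not past the threshold.

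Chrna4, the alpha4 subunit of the main high-affinity nicotinic receptor of the brain, was at 11.72 and 12.23 in water without TST, 12.42 and 10.66 in water with TST, 12.89 and 12.77 with low-dose RE, and 13.05 and 12.61 with high-dose RE. Either dose was 1.29 above water with TST (SE 0.508; limma, unadjusted p = 0.0338), and the arrays did not overlap. The thalamus list (5 of 5 genes measured) also separated the RE arrays, at 0.31 to 0.86, from the water arrays, at -0.72 to -0.18. Its genes Tcf7l2, Prkcd and Lef1 were past the threshold at both doses. Of all rows, 3.54% passed it with the low dose and 3.17% with the high dose. The adjusted p of these 3 genes by limma was 0.946 with the low and 0.973 with the high dose. Slc17a6 was higher but not past the threshold, at 0.71 with the low and 0.56 with the high dose. Rora went the other way, at -0.12 and -0.515, and was highest on water with TST replicate 2, at 14.03. The part of the genes of this list in the Chrna4 values was not tested. Without water with TST replicate 2 the Chrna4 difference was 0.41 and not past the threshold at either dose, nor was it without either low-dose array or, for the high dose, without either high-dose array. Its partner Chrnb2, at 9.28 and 9.70 in water with TST and between 9.08 and 9.84 on the RE arrays, was not past it.

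Chkb, a choline kinase gene, was lower with high-dose RE than in water with TST, at 8.71 and 8.84 against 9.24 and 10.32, a difference of -1.01 (SE 0.344; unadjusted p = 0.0184 by limma). Without water with TST replicate 2 it was at -0.47 and not past the threshold, nor was it without either high-dose array. Lypd6, whose product binds nicotinic receptors and modulates them, was lower at the high than at the low dose, at 9.41 and 9.56 against 10.08 and 9.94, a difference of -0.53 (SE 0.218; unadjusted p = 0.0417 by limma), which held in 2 of the 8 fits without 1 array. None of the other choline supply, anchor and chaperone, signalling, and fate genes was past the threshold in any of the 4 comparisons. Among the signalling genes, Plcb4, a phospholipase C gene of Purkinje cells, was at 14.70 on water with TST replicate 2 and between 12.32 and 13.16 elsewhere, whereas its relative Plcb1 was at 12.82 there and between 14.26 and 14.91 elsewhere.

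**Figure D5:**
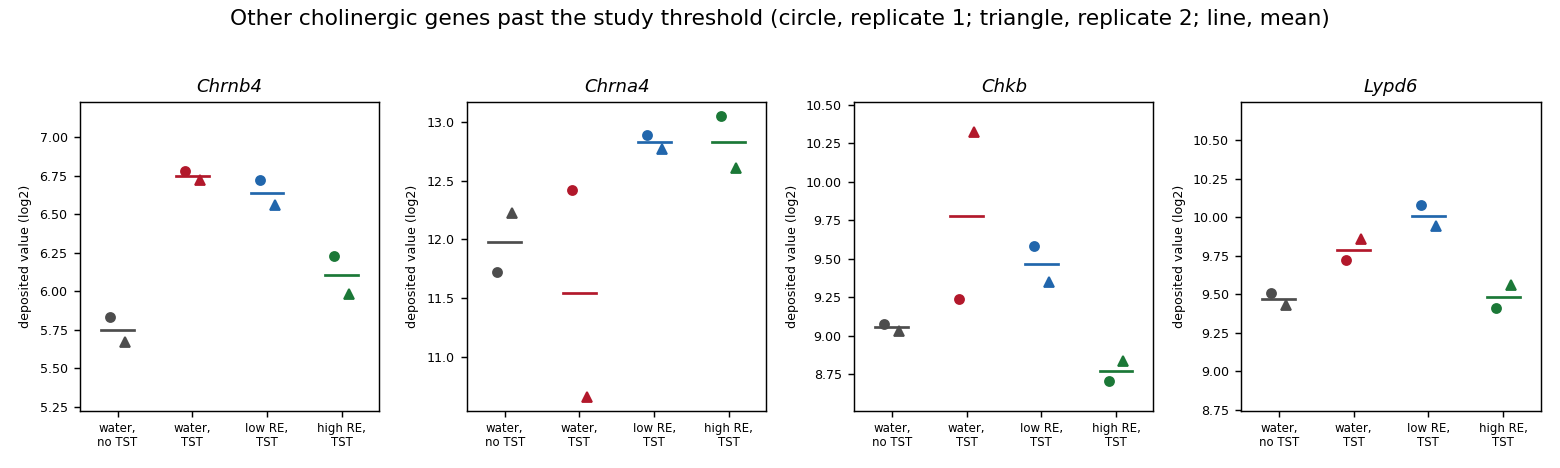
Deposited log2 values of the 4 further pathway genes past the study's threshold in at least 1 comparison, by group, with a circle for replicate 1, a triangle for replicate 2 and a line for the mean. The Chrnb4 arrays of water without TST, at 5.83 and 5.67, lie below all others, and Chrna4 is lowest on water with TST replicate 2, at 10.66.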

How the data were processed

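RNA from mouse brain was measured on 8 Clariom S arrays, 1 per sample. Per the series' design text and the submitters' processing notes, the authors normalized the arrays with the robust multichip average in Transcriptome Analysis Console 4.0.1 and deposited log2 values, kept here as deposited. They run from 2.76 to 19.79, and 1359 exceed 16, the log2 limit of a 16-bit scanner; how they were reached is not stated, so a step of 1 may not be exactly a doubling of intensity. No detection call was used, and precision is limited by having 2 arrays per group. Of 22206 rows, 19572 carried 1 gene symbol and 2634 none; gene identifiers matched the RefSeq gene table for all 19572. The sources used here name no genome build for the platform.

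Group means were fitted to all 8 arrays with limma 3.58.1 (lmFit, eBayes) in R 4.3.3, with 4 residual and 4.30 prior degrees of freedom and two-sided tests. P-values were adjusted by Benjamini-Hochberg over all rows. The fit was tested on simulated data. The study's threshold is a fold above 1.2 and an unadjusted p under 0.05. The 10 genes were described whatever their values; pathway genes were named where past that threshold, and other genes named beside a result, such as Chrna3, Chrnb2, Plcb1, Plcb4, Lhx8, Zic4, Slc6a5 and Tph2, and genes of the thalamus list, were chosen after their values were seen. The 5 genes most like Chat, Chrm1 and Chrm4 were named by a rule that left out predicted loci and receptors of smell and taste. Genes and lists were chosen with earlier results of these data known. Alternatives were a replicate block, fits of the compared groups, a trended robust prior, a filter on the dimmest 25% of rows, quantile normalization, the methods' one-way analysis of variance, the second Ache row, leaving out each array and, added after seeing the data, leaving out replicate 2 of both water groups.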

Additional observations from a re-analysis of the deposited data

How the results depend on the processing

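None of the 10 genes passed the study's threshold with the replicate number as a block, a trended robust prior, arrays outside the comparison left out, quantile normalization or the methods' analysis of variance, and with the replicate block 497, 702, 632 and 409 rows passed it (TST effect, low-dose RE, high-dose RE, and high against low dose), against 567, 787, 705 and 425. The replicate numbers did not pair the arrays: replicate differences correlated between groups at -0.293 to 0.169 across rows, above 0.1 in 1 of 6 pairs of groups. Without the dimmest 25% of rows Chat and Slc18a3 dropped out, and 251 rows passed for high against low dose. Fitting only the groups compared, 352 rows passed for the TST effect and 267 for low-dose RE; the methods' analysis of variance gave 487 for low-dose RE. The causes were not tested. A fit without replicate 2 of both water groups leaves 1 array in each, assumed to vary like the RE groups. Its counts are therefore no result about TST. Of these arrays, water without TST replicate 1 was at 2.82 in cerebellar granule cell genes and water with TST replicate 1 at -1.355. The part of that gap in the Chrm1 and Chrm4 values was not tested. Without replicate 2 of both water groups, 2 of the 10 genes (Chrm1 and Chrm4) and 962 rows passed for the TST effect. Leaving out 1 array gave 0 to 3, 0 to 3 and 0 to 5 of the 10 genes for the TST, low-dose and high-dose comparisons, and 364 to 3707, 496 to 3767, 354 to 3785 and 247 to 1183 rows for the 4 comparisons; the highest of these came without water with TST replicate 1, or for the doses without low-dose RE replicate 1.

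Signs turned under quantile normalization for low-dose RE against water with TST, Chat at -0.012, Chrm2 at -0.005 and Slc5a7 at -0.058; for high-dose RE against water with TST, Chrm2 at -0.0069; for high against low dose, Chrm2 at -0.0019. On the second Ache row they turned for low-dose RE against water with TST, Ache at 0.37; for high-dose RE against water with TST, Ache at 0.31. Without replicate 2 of both water groups they turned for the TST effect, Bche at -0.09, Chat at -0.10, Chrm1 at 0.88, Chrm3 at 0.81, Chrm4 at 0.89 and Slc18a3 at -0.09; for low-dose RE against water with TST, Ache at 0.18, Chrm1 at -0.25, Chrm3 at -0.05, Chrm4 at -0.28 and Slc18a3 at 0.085; for high-dose RE against water with TST, Ache at 0.12, Chat at 0.22, Chrm1 at -0.31, Chrm3 at -0.14, Chrna7 at -0.15 and Slc5a7 at 0.20. Over the 8 fits without 1 array, the lowest and highest values of genes whose sign turned in at least 1 of them were as follows. For the TST effect the sign of these genes turned: Chat -0.35 to 0.74, Slc18a3 -0.23 to 0.45, Slc5a7 -1.23 to 0.45, Ache -0.56 to 0.11, Bche -0.40 to 0.47, Chrm1 -3.63 to 0.83, Chrm3 -1.77 to 0.82 and Chrm4 -1.70 to 0.59. For low-dose RE against water with TST the sign of these genes turned: Chat -0.54 to 0.56, Slc18a3 -0.60 to 0.085, Slc5a7 -0.54 to 0.58, Ache -0.49 to 0.18, Chrm1 -0.25 to 4.21, Chrm2 -0.16 to 0.18, Chrm3 -0.05 to 2.54 and Chrm4 -0.28 to 2.02. For high-dose RE against water with TST the sign of these genes turned: Chat -0.87 to 0.22, Slc5a7 -0.92 to 0.20, Ache -0.56 to 0.12, Chrm1 -0.31 to 4.15, Chrm2 -0.13 to 0.17, Chrm3 -0.14 to 2.46 and Chrna7 -0.15 to 0.37. For high against low dose the sign of these genes turned: Ache -0.28 to 0.15, Bche -0.24 to 0.27, Chrm1 -0.28 to 0.16, Chrm2 -0.16 to 0.18 and Chrm3 -0.50 to 0.33.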
